A study of Mus musculus with 8 samples.

Results

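The ErbB system of *Hdac3* KO MCECs was described here from bulk RNA-Seq of a mouse cardiac endothelial cell line. The genes followed were the ligands *Nrg1*, *Areg*, *Ereg*, *Hbegf*, *Tgfa* and *Btc*, the receptors *Egfr*, *Erbb2* and *Erbb3*, and the receptor inhibitor *Errfi1*. They were picked by gene symbol, 10 in all, from a deposited table of 8278 genes. Of the 10, 7 had a row, and *Tgfa*, *Btc* and *Egfr* had none. The table holds only genes that differed between the groups in the authors' own comparison, so a gene with a row had to differ, and nothing can be said here about the level of a gene without one.

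The *Hdac3* KO group was 4 libraries of MCECs transduced with a lentiCRISPR v2 lentivirus carrying an *Hdac3* sgRNA, and the EV group was 4 libraries of MCECs given the empty vector (EV) lentivirus. All cells were of the same purchased line and were grown in serum-supplemented DMEM. Whether the KO line was a clone or a pool is not given in the sources used here. The study's general statements call the replicates of in vitro work technical in one place and the replicates of its figures biological in another, and the sources used here do not say for these libraries whether they came from separate cultures. The p-values therefore measure the spread between these samples, which may be technical. In bulk RNA, fewer cells with a transcript and less transcript per cell cannot be told apart.

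ErbB receptors are receptor tyrosine kinases that signal as pairs. EGF-type ligands are made as membrane-bound precursors, cut free by proteases, and bind EGFR, ErbB3 or ErbB4, while ErbB2 has no ligand of its own and serves as the partner chain. ErbB3 has little kinase activity and depends on that partner. In the embryonic heart, neuregulin-1 from the endocardium acts on ErbB2 and ErbB4 of the cardiomyocytes and is needed for trabeculation, the growth of muscle ridges into the ventricle. HB-EGF is a ligand of EGFR and ErbB4 with a known part in valve development.

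*Hdac3*, the targeted gene, checked the labels. Its normalized counts, meaning reads divided by the relative size of the library, were, in the order of the replicate numbers as throughout, 1943, 2077, 2064 and 2147 in the EV libraries and 1558, 1465, 1496 and 1531 in the *Hdac3* KO libraries. Every *Hdac3* KO library lay below every EV library, in the direction of the labels, and reads of the gene remained. The level fell by 26.5%. Of all genes, 49.6% passed as lower in the test given below and 91.1% had groups that did not overlap. This check of the labels is therefore weak. Library totals ran from 15775327 to 21262575 reads in EV and from 19356714 to 22255684 in *Hdac3* KO.

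Of the 7 members with a row, 6 passed an adjusted p-value of 0.01 in edgeR's quasi-likelihood test, 4 of them higher and 2 lower in *Hdac3* KO MCECs. Of all genes tested, 96.7% passed in either direction, 47.1% as higher and 49.6% as lower, so the share of members that passed is near the background of a table chosen for differences. The groups of 4 libraries did not overlap in 5 of the 7 members, against 91.1% of all genes. *Nrg1* and *Erbb2* fell, *Ereg*, *Areg*, *Errfi1* and *Hbegf* rose, and *Erbb3* did not pass. What follows is therefore about sizes, levels and directions.

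The normalization bears on the small differences. With TMM factors, which centre the libraries on the bulk of the genes, the median log2 fold change of all genes was 0.06, and with the plain library totals it was -0.06, a shift of 0.12. Of the genes that passed, 48.7% were higher with TMM (3895 higher and 4107 lower) and 39.3% with the totals (2671 higher and 4120 lower). *Nrg1*, *Erbb2*, *Ereg*, *Areg* and *Errfi1* kept their direction and their call under both. *Hbegf* kept its direction and lost its call under the totals.

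*Nrg1* encodes neuregulin-1, a ligand of ErbB3 and ErbB4 (ENSMUSG00000062991, mm10 chr8:31818028-31918203 in the table, minus strand). Its normalized counts were 673, 727, 698 and 694 in the EV libraries and 268, 274, 238 and 277 in the *Hdac3* KO libraries. The lowest EV library was far above the highest *Hdac3* KO library. The level fell by 62.2%, a log2 fold change of -1.40 ± 0.06 (SE) with an adjusted p of 3.3e-21 in edgeR's quasi-likelihood test. The exact permutation test gave the smallest p that 4 libraries against 4 allow, 0.0286 (two-sided, 70 arrangements). The size of this change was above that of 93.3% of the genes in the table, and relative to the table's median it was -1.46 under either scaling. These are RNA values. Among the growth factors that the paper blotted in these cells, NRG1 included, it reported a significant protein decrease for TGFβ3 alone.

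*Hbegf* encodes heparin-binding EGF-like growth factor (ENSMUSG00000024486, mm10 chr18:36504929-36515805, minus strand). It had 310, 253, 245 and 260 normalized counts in EV and 363, 289, 362 and 313 in *Hdac3* KO MCECs. The groups overlapped, since EV replicate 1 was above *Hdac3* KO replicate 2. The log2 fold change was 0.32 ± 0.08 (SE), adjusted p = 0.00056 in edgeR's test, and the exact permutation p was 0.0571 (two-sided). With the library totals the edgeR value was 0.20 with an adjusted p of 0.025. On the deposited FPKM the exact permutation p was 0.171 (two-sided). *Hbegf* thus passed with TMM factors and with DESeq2's size factors, and not with library totals or on FPKM. The difference was small for this table, with 37.5% of all genes showing a smaller one.

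*Ereg* encodes epiregulin, a ligand of EGFR and ErbB4 (ENSMUSG00000029377, mm10 chr5:91074617-91093649, plus strand). It had 35.6, 38.9, 42.8 and 39.9 normalized counts in EV and 91.5, 94.2, 92.3 and 83.4 in *Hdac3* KO MCECs. The groups were well apart, although the gene was read from at most 103 reads in a library. The rise was 2.30-fold, a log2 fold change of 1.19 ± 0.14 (SE) with an adjusted p of 3.3e-09 in edgeR's test, and the exact permutation p was 0.0286 (two-sided), the smallest possible.

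*Areg* encodes amphiregulin, an EGFR ligand (ENSMUSG00000029378, mm10 chr5:91139615-91148432, plus strand). It was close to the floor of detection, with 5, 3, 0 and 4 raw reads in the EV libraries and 16, 9, 12 and 12 in the *Hdac3* KO libraries. Every *Hdac3* KO library nevertheless held more reads than every EV library. Summed over each group there were 12 reads against 49, a ratio of rates of 3.75 with an exact 95% interval from 1.96 to 7.74 that covers counting error only. The log2 fold change was 1.87 ± 0.48 (SE) with an adjusted p of 0.00057 in edgeR's test. It moved between 1.46 without EV replicate 3, the library at 0, and 2.27 without EV replicate 1, so the size of this rise is poorly fixed.

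**Figure D1:**
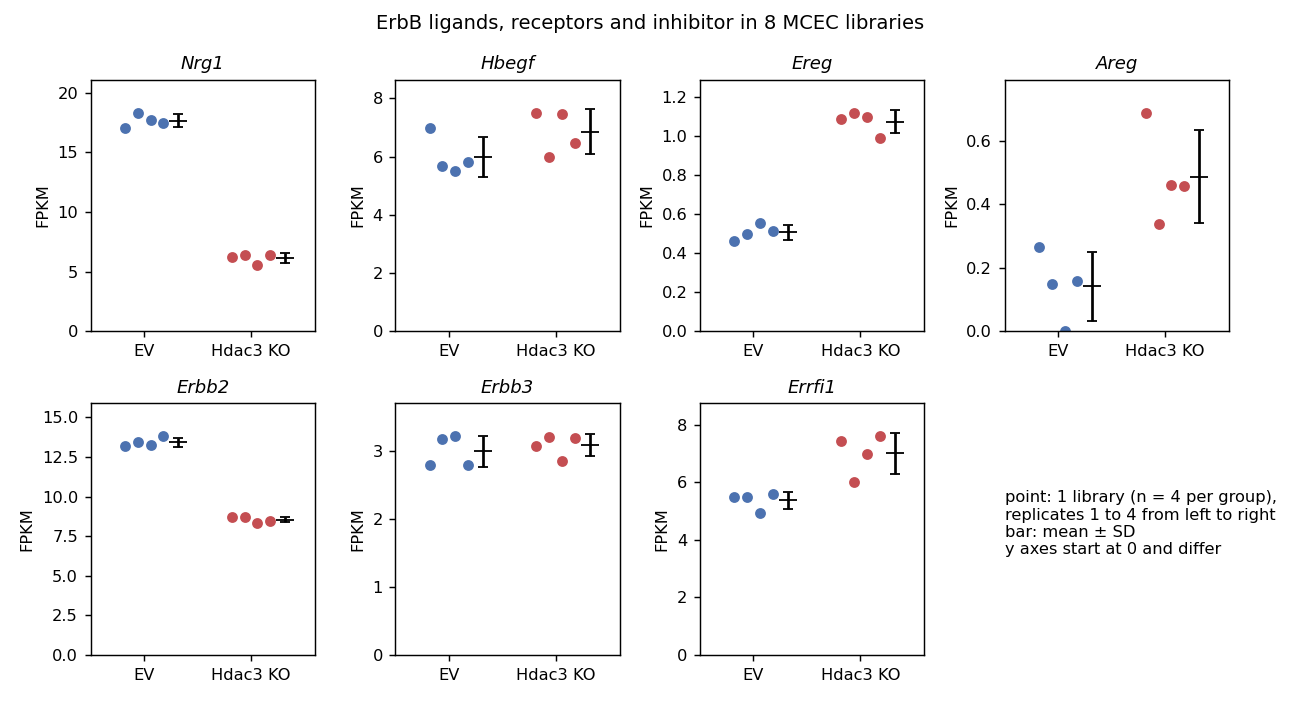
FPKM (reads scaled by gene length and library total, y axis) of the 7 members with a row in each EV (blue) and *Hdac3* KO (red) library, with the mean ± SD of each group (n = 4). *Nrg1* and *Erbb2* lie lower in every *Hdac3* KO library, *Ereg*, *Areg* and *Errfi1* higher, and the libraries of *Hbegf* and *Erbb3* overlap.

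Levels can be compared between genes only per length, here as the deposited FPKM. Among the 4 ligands with a row, *Nrg1* stood highest in every EV library, at 17.7 ± 0.52 FPKM (SD, n = 4), followed by *Hbegf* at 5.98 ± 0.67, *Ereg* at 0.51 ± 0.04 and *Areg* at 0.14 ± 0.11. In *Hdac3* KO MCECs, *Hbegf* at 6.86 ± 0.76 FPKM and *Nrg1* at 6.16 ± 0.41 overlapped, with *Hbegf* above *Nrg1* in 3 of 4 libraries. *Ereg* at 1.07 ± 0.06 and *Areg* at 0.49 ± 0.15 remained well below both. The order of *Nrg1* and *Hbegf* in EV was thus not kept in *Hdac3* KO, while the low ligands stayed low. These levels depend on the gene lengths of the table. On the exonic bases that GENCODE places inside each deposited interval, an alternative chosen after seeing the data, *Nrg1* would be at 7.14 ± 0.21 FPKM in EV and 2.49 ± 0.17 in *Hdac3* KO, still above *Hbegf* in every EV library and below it in every *Hdac3* KO library.

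The ratio of *Nrg1* to *Hbegf* within a library does not depend on how libraries are scaled to each other. It was 2.45, 3.24, 3.22 and 3.02 in the EV libraries and 0.834, 1.07, 0.743 and 0.997 in the *Hdac3* KO libraries. The lowest EV ratio was above the highest *Hdac3* KO ratio. Of the summed FPKM of these 4 ligands, *Nrg1* made up 72.7% ± 2.6 (SD, n = 4) in EV and 42.4% ± 3.8 in *Hdac3* KO MCECs, and *Hbegf* 24.6% ± 2.4 and 47.0% ± 3.5. The share of *Ereg* was 2.08% ± 0.20 in EV and 7.37% ± 0.55 in *Hdac3* KO. The sum itself was 24.3 ± 0.50 FPKM in EV and 14.6 ± 0.72 in *Hdac3* KO, as the gains of the other ligands added up to less than the loss of *Nrg1*. Ligands without a row are outside this sum.

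**Figure D2:**
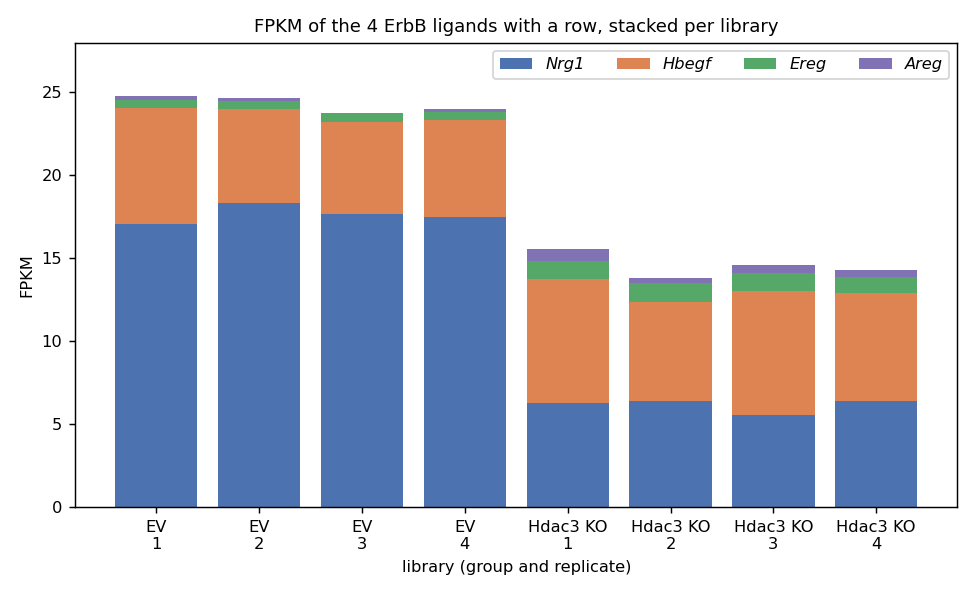
FPKM of *Nrg1*, *Hbegf*, *Ereg* and *Areg* (y axis), stacked in each of the 8 libraries (x axis, group and replicate). The summed level was 23.8 to 24.8 FPKM in EV and 13.8 to 15.6 in *Hdac3* KO, and the *Nrg1* part shrank from 69.0% or more to 46.2% or less.

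Of the receptors, *Erbb2* was the higher. *Erbb2* encodes the partner chain without a ligand of its own (ENSMUSG00000062312, mm10 chr11:98412470-98437716, plus strand). Its normalized counts were 1238, 1270, 1247 and 1306 in EV and 886, 888, 850 and 869 in *Hdac3* KO MCECs. Both groups were tight and far apart. The level fell by 31.0%, a log2 fold change of -0.54 ± 0.04 (SE) with an adjusted p of 1.3e-14 in edgeR's test, and the exact permutation p was 0.0286 (two-sided), the smallest possible.

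*Erbb3* encodes the receptor with little kinase activity (ENSMUSG00000018166, mm10 chr10:128567523-128589652, minus strand). It had 315, 360, 363 and 317 normalized counts in EV and 377, 392, 350 and 393 in *Hdac3* KO MCECs. The groups overlapped, with *Hdac3* KO replicate 3 below EV replicates 2 and 3. The log2 fold change was 0.16 ± 0.07 (SE), adjusted p = 0.022 in edgeR's test, and the exact permutation p was 0.0857 (two-sided). It was 0.04 with the library totals (adjusted p = 0.54), and without *Hdac3* KO replicate 3 it was 0.20 and passed the cut-off (adjusted p = 0.0082), both in edgeR's test. On the deposited FPKM the exact permutation p was 0.571 (two-sided). A difference in *Erbb3* was thus not separable from the spread and the scaling.

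The balance of the receptors was also compared within each library. The FPKM of *Erbb2* divided by that of *Erbb3* was 4.72, 4.24, 4.13 and 4.95 in the EV libraries and 2.82, 2.72, 2.91 and 2.66 in the *Hdac3* KO libraries, with no overlap. *Erbb2* stayed the higher receptor in every library. In FPKM, *Erbb2* was at 13.4 ± 0.28 (SD, n = 4) in EV and 8.55 ± 0.18 in *Hdac3* KO MCECs, and *Erbb3* at 2.99 ± 0.23 and 3.08 ± 0.16. By the deposited lengths the ratio of *Nrg1* to *Erbb2* was 1.27 to 1.37 in the EV libraries and 0.67 to 0.76 in the *Hdac3* KO libraries. On the GENCODE exonic bases it was 0.53 to 0.57 and 0.28 to 0.32, so whether *Nrg1* stood above *Erbb2* in EV depends on the gene model, while the ratio was lower in *Hdac3* KO with either.

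*Errfi1* encodes MIG6, a cytoplasmic protein that binds the kinase domain of EGFR and ErbB2 and inhibits it, and whose gene is itself induced by EGFR signalling (ENSMUSG00000028967, mm10 chr4:150853919-150868892, plus strand). It had 313, 315, 281 and 321 normalized counts in EV and 462, 372, 433 and 474 in *Hdac3* KO MCECs. No *Hdac3* KO library reached down to the EV range, though replicate 2 came closest. The rise was 1.41-fold, a log2 fold change of 0.50 ± 0.07 (SE) with an adjusted p of 1.2e-07 in edgeR's test. By FPKM, *Errfi1* ranked just below *Hbegf* in EV, with overlapping ranges. In *Hdac3* KO it ranked between *Erbb2* and *Hbegf*, again overlapping *Hbegf*. With the GENCODE exonic bases as length, *Errfi1* was above *Hbegf* without overlap in both groups.

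**Figure D3:**
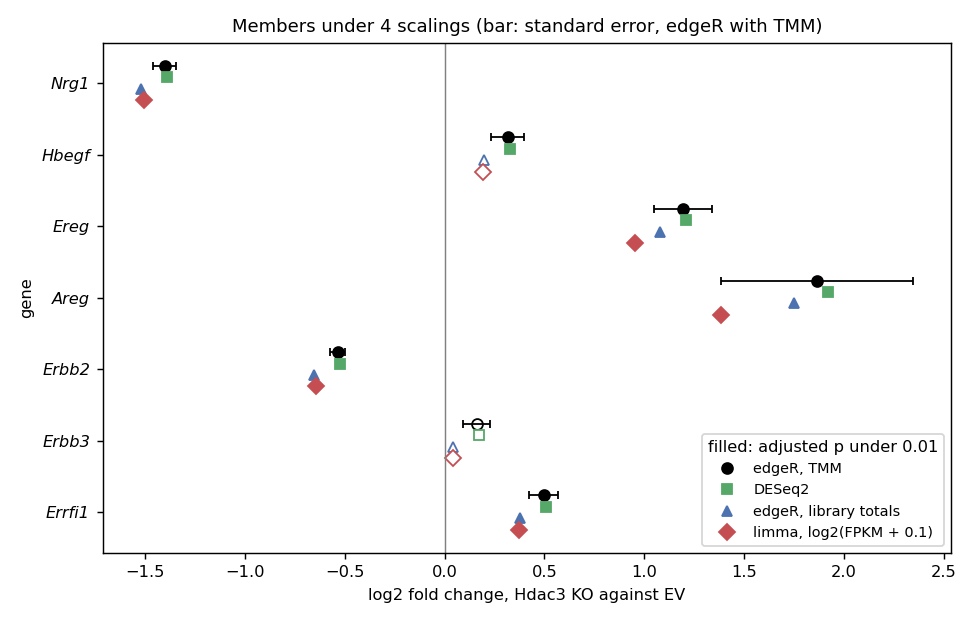
Log2 fold change of *Hdac3* KO against EV (x axis) of each member (y axis) with edgeR and TMM (bar, standard error), DESeq2, edgeR on library totals, and limma on log2(FPKM + 0.1), filled where the adjusted p was under 0.01. Every member keeps its direction under the 4, *Hbegf* is open under 2 of them, and *Erbb3* is open under all 4.

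The promoters of *Areg* and *Errfi1* are shown because both genes rose and because they share a motif. Of the 7 windows searched, 1 window of each held a full cAMP response element and no other did. Its letters, TGACGTCA, can be bound by CREB and ATF family factors. The RefSeq windows (GRCm38.p6) searched were those of *Areg*, *Errfi1*, *Erbb2*, *Egfr*, *Tgfa* and *Btc*, with 2 starts for *Errfi1*. Windows of the other genes followed were not searched, and nothing is said here about them. The other *Errfi1* window, chr4:150853546-150853795, held neither TGACGTCA nor TATAAA. The 250 bases before each start are given 5′ to 3′ on the gene's strand, with TGACGTCA and the TATA box letters TATAAA in capitals. The *Areg* window is chr5:91139349-91139598 and the *Errfi1* window is chr4:150854820-150855069, both on the plus strand. This *Errfi1* window lies inside the deposited interval of the gene, which begins at 150853919, and the other *Errfi1* window lies before that position.
Areg: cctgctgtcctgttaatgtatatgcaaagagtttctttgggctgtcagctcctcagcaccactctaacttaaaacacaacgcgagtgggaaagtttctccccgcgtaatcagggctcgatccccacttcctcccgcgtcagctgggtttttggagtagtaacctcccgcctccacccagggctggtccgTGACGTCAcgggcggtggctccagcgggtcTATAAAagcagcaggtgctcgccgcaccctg
Errfi1: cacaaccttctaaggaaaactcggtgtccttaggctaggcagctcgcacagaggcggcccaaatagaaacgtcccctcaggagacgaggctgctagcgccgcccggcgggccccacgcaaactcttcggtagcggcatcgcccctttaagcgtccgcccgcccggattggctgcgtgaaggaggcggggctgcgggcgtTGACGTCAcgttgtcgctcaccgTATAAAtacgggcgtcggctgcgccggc

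In *Areg* the cAMP response element letters lay at positions -61 to -54 from the start and the TATA letters at -31 to -26, and in *Errfi1* at -51 to -44 and at -28 to -23. Searched on both strands, TGACGTCA was in 1.55% of 32851 windows of the same length, TATAAA in 12.4%, and both together in 0.119%. The letters TGANTCA of an AP-1 site, in 6.75% of all windows, were in none of the 7. TGACGTCA and TGANTCA cannot match the same bases. The search for these letters was not among the comparisons planned. In the deposited table, 192 genes had a window with TGACGTCA, *Areg* and *Errfi1* among them. Of the 192, 122 were higher (63.5%) and 63 lower past the cut-off. Of the 6133 genes of the table with any window, 2928 were higher (47.7%) and 2991 lower. The median log2 fold change was 0.18 for the former and 0.08 for the latter, and this difference was not tested. A match is a description of letters and not of a bound site.

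*Ereg* and *Areg* belong to a cluster of EGF-type ligand genes on chromosome 5 and start 65.0 kb apart. Both rose. *Btc*, and *Epgn* of the same cluster, had no row. Of the other genes of the table near them, *Mthfd2l*, a mitochondrial folate enzyme whose annotated start lies at -143.4 kb from that of *Ereg*, was at 124 normalized counts in EV and 149 in *Hdac3* KO, and did not pass (adjusted p = 0.014 in edgeR's test). *Parm1*, a mucin-like membrane protein that starts 378.0 kb beyond *Areg*, was lower by 0.73 on the log2 scale, at 1072 normalized counts in EV and 647 in *Hdac3* KO. *Rassf6*, a RAS association domain gene whose low-coordinate end, its 3′ end, lies at -471.5 kb from the start of *Ereg*, rose from 12.1 to 23.3 normalized counts, a log2 fold change of 0.94 with an adjusted p of 0.0014 in edgeR's test. Of the 5 genes of the table on this stretch, *Ereg* and *Areg* included, 3 rose, 1 fell and 1 did not pass, a share of calls no higher than the 96.7% of all genes.

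The *Nrg1* value covers part of the gene. GENCODE M21, on the same mm10 build, has 18 *Nrg1* transcripts between positions 31814551 and 32884029 of chromosome 8, and the deposited interval holds 50.2% of their exonic bases. Of the transcripts, 7 begin inside the interval or within 0.19 kb of its 5′ end, 1 begins 31.9 kb upstream, 8 begin about 91 kb upstream, and 2 begin about 966 kb upstream. The deposited gene length is 2103 bases. The counts therefore give no share for each start, and the FPKM of *Nrg1* rests on a shorter gene model than the annotation's.

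At the start about 91 kb upstream, the first exons of *Nrg1*, 482 bases, lie wholly inside exons of *Gm26578*, a lincRNA gene on the opposite strand (chr8:32008504-32015759). *Gm26578* was singled out after its values were seen, as the sole other gene of the table whose low-coordinate end lies within 500 kb of that of the deposited *Nrg1* interval, which is the 3′ end of *Nrg1*. It had 262, 322, 299 and 316 normalized counts in EV and 105, 128, 117 and 90.9 in *Hdac3* KO MCECs. All *Hdac3* KO libraries lay below all EV libraries, with a log2 fold change of -1.44 ± 0.10 (SE) and an adjusted p of 1.4e-15 in edgeR's test. Reads of *Gm26578* per read of *Nrg1* were 0.43 ± 0.03 (SD, n = 4) in EV and 0.42 ± 0.07 in *Hdac3* KO. The shared bases are 10.5% of the exonic bases of *Gm26578*. Counting is not stated to use strand, so in those bases reads of *Gm26578* and of *Nrg1* cannot be told apart.

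The other genes of the pathway were taken as 5 lists of 83 genes, of which 54 had a row, 23 rose and 29 fell past the cut-off. That 52 of 54 passed is near the 96.7% of all genes. Among the 6 further ligands and receptors, *Nrg2* had a row, and *Egf*, *Epgn*, *Nrg3*, *Nrg4* and *Erbb4* had none. *Nrg2* encodes neuregulin-2, a ligand of the same receptors as *Nrg1*. It had 102, 81.1, 89.8 and 112 normalized counts in EV and 64.2, 50.3, 65.0 and 69.4 in *Hdac3* KO MCECs. The groups did not overlap, and the log2 fold change was -0.64 ± 0.14 (SE) with an adjusted p of 8.4e-05 in edgeR's test.

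Genes that cut or mature the ligand precursors moved both ways. Of 13 listed, 10 had a row, 4 were higher and 6 lower, all past the cut-off, shares near those of all genes (47.1% and 49.6%), and the median log2 fold change was -0.39 beside 0.06 over all genes. *Furin*, a proprotein convertase that also activates ADAM proteases, fell from 1534 ± 75 to 907 ± 13 normalized counts (SD, n = 4 each). *Bace1*, a protease that cuts neuregulin-1, fell from 1264 ± 17 to 841 ± 42. The gene of an iRhom protein needed for the maturation of ADAM17, *Rhbdf2*, rose from 258 ± 21 to 401 ± 23, and *Frmd8*, which stabilizes iRhoms, rose from 2830 ± 40 to 3934 ± 41. *Adam17* itself, the main sheddase of these ligands, had a log2 fold change of 0.11 that changed sign with the library totals. Under these totals, 2 genes of the list were higher past the cut-off and 6 lower, beside 2671 and 4120 of all 8278 genes.

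The adaptors and near effectors of the receptors also moved both ways. Of 25 listed, 15 had a row, 4 were higher and 10 lower past the cut-off, beside 47.1% and 49.6% of all genes, and the difference from these shares was not tested. Their median log2 fold change was -0.27. *Vav2*, a signalling protein that binds activated receptors, fell from 2691 ± 96 to 1352 ± 38 normalized counts (SD, n = 4 each). *Stat3*, a transcription factor activated by tyrosine kinases, fell from 5911 ± 153 to 3459 ± 142. *Ptpn11*, the phosphatase SHP2 that carries the signal to RAS, rose from 4859 ± 147 to 6880 ± 112, and *Sos1*, the RAS exchange factor, rose from 1960 ± 146 to 2593 ± 31. *Shc1* did not pass, and its sign and that of *Crkl* changed with the library totals.

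Genes that attenuate the receptors or take them up moved both ways. Of 23 listed, 14 had a row, 6 were higher and 8 lower past the cut-off, beside 47.1% and 49.6% of all genes. Their median log2 fold change was -0.15. With the library totals, 2 were higher and 8 lower, beside 2671 higher and 4120 lower of all 8278 genes. *Cblb*, a ubiquitin ligase for activated receptors, fell from 759 ± 45 to 423 ± 28 normalized counts (SD, n = 4 each), and *Ptprk*, a receptor phosphatase, fell from 1346 ± 65 to 904 ± 27. *Spred2*, an inhibitor of the RAS to ERK pathway, rose from 1465 ± 36 to 1881 ± 61. *Sh3kbp1*, an adaptor of receptor uptake, was at 120 ± 24 and 164 ± 21, a rise past the cut-off (adjusted p = 0.00056 in edgeR's test) with overlapping groups.

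Early targets and feedback genes of receptor signalling were the list with a median above that of all genes, 0.56. Of 16 listed, 14 had a row, 9 were higher and 4 lower past the cut-off, beside 47.1% and 49.6% of all genes, and the difference from these shares was not tested. *Fosl1*, a transcription factor gene downstream of ERK, rose from 117 ± 12 to 554 ± 32 normalized counts (SD, n = 4 each), or by 2.24 on the log2 scale. *Etv4*, an ETS factor gene, rose from 107 ± 12 to 355 ± 14, or by 1.73. Other genes of the list fell. *Egr1* was at 1211 ± 39 in EV and 382 ± 6 in *Hdac3* KO (log2 fold change -1.66), and *Fos* at 134 ± 15 and 59.3 ± 8.8 (log2 fold change -1.18). Members of one signal-responsive list thus moved in opposite directions by large amounts, and *Junb* did not pass. Of the 16 genes named by rule from the 4 lists, all but *Sh3kbp1* had groups that did not overlap. Their exact permutation p was 0.0286 (two-sided), the smallest possible. The 16 were named for the size of their change, and 91.1% of all genes had groups that did not overlap. Nothing is therefore read from that count.

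**Figure D4:**
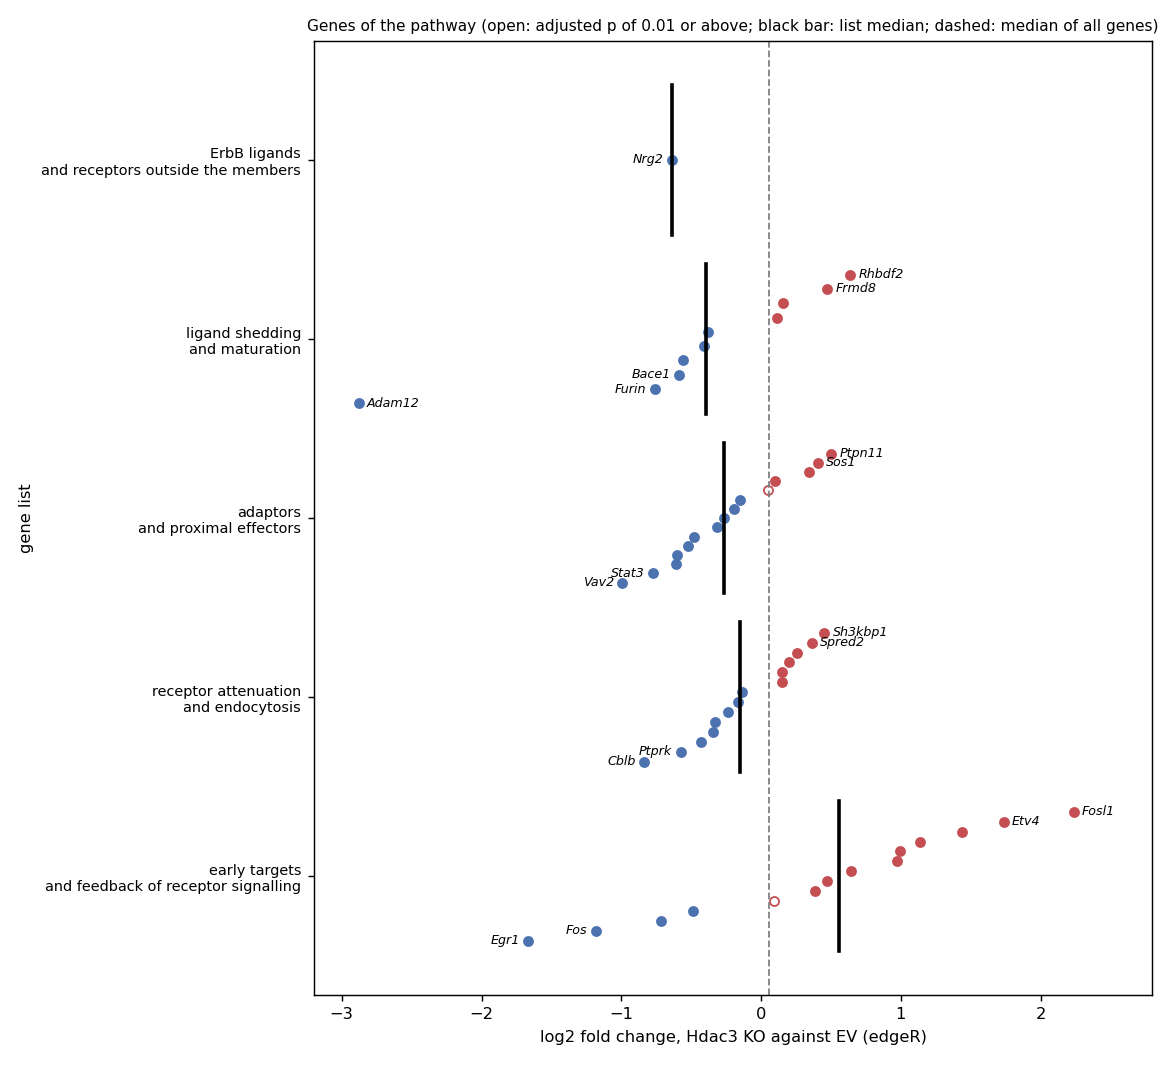
Log2 fold change of *Hdac3* KO against EV (x axis, edgeR) of every listed pathway gene with a row, by list (y axis), with each list's median (black bar) and that of all genes (dashed, 0.06). The early targets spread from *Egr1* at -1.66 to *Fosl1* at 2.24. The far left point, *Adam12* at -2.88, had 14.9 normalized counts on average in EV and 1.86 in *Hdac3* KO and is named after its values were seen.

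The labelled cell type was checked against fixed markers. Of 13 endothelial markers 5 had a row. *Eng*, at 17.2 to 22.1 FPKM over the 8 libraries, and *Flt1*, at 2.00 to 2.81, were read throughout, while *Pecam1* had between 0 and 9 reads per library and *Tek* and *Kdr* were under 1 FPKM. The endothelial sum was 23.8 to 26.1 FPKM in EV and 19.7 to 20.7 in *Hdac3* KO. *Pecam1* was higher (log2 fold change 2.70), while *Tek* (-1.41), *Kdr* (-1.20), *Flt1* (-0.26) and *Eng* (-0.16) were lower. Of 9 fibroblast or mural markers, 5 had a row and summed to 731 to 753 FPKM in EV and 537 to 554 in *Hdac3* KO, led by *Col1a1*, which was higher (log2 fold change 0.23), and *Dcn*, which was lower (-1.21), as were the 3 others. Of 7 epithelial markers 4 had a row, at 529 to 564 and 505 to 515 FPKM, led by *Krt19* and *Krt14*. The lower epithelial sum came from *Krt14*, at a log2 fold change of -0.44, while *Krt8* (1.20), *Krt18* (1.59) and *Krt19* (0.30) were higher. None of 7 cardiomyocyte markers had a row, and of 6 haematopoietic markers *Cd68* alone had one, at 5.36 to 5.89 FPKM in EV and 11.1 to 12.5 in *Hdac3* KO. The part of these shifts in the values of the ErbB genes was not tested.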

How the data were processed

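Bulk RNA-Seq of 4 *Hdac3* KO and 4 EV MCEC samples was used, grouped by the sample titles. The authors aligned reads to mm10 with tophat2 and bowtie2, and their methods name the cufflinks suite and DESeq2. The submitters' processing notes name CASAVA and DESeq 1.6.3. The counter and its use of strand are not given in the sources used here. The authors deposited raw counts per gene, and FPKM made from count, gene length and library total. Columns with the authors' group means, fold changes and p-values, and separate tables of their higher and lower genes, were not used.

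Library totals were recovered from count, length and FPKM. The genes of the table held 84.3% to 85.9% of the reads. Genes were tested with the quasi-likelihood test of edgeR 4.0.16 (R 4.3.3) on totals with TMM factors, without a filter, p-values adjusted by Benjamini-Hochberg across all 8278 genes and a cut-off of 0.01. The common coefficient of variation was 2.82%. Single values were compared by two-sided exact permutation over 70 arrangements (scipy). Up to 3 reads per library counted as the floor. The interval for *Areg* covers counting error only, since its reads were summed over the libraries of each group. The reads carry no molecular identifiers, and each was counted as separate. The adjusted p-values describe genes already selected on these libraries. Alternatives used GENCODE exonic bases as gene length (chosen after seeing the data), library totals without TMM, and DESeq2 1.42.0 and limma 3.58.1 on log2(FPKM + 0.1) and log2(FPKM + 1). The tests were run first on simulated data in which few of the genes were changed. That run therefore does not bear on the scaling or the calls in a table where most genes differ.

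Members and lists were chosen with earlier results of these data known. Named genes are every member with a row, the targeted gene, and listed ErbB ligands and receptors with a row. Near neighbours are named where a result turns on them. Each list adds the 2 highest and 2 lowest log2 fold changes past the cut-off where the higher group averaged 100 normalized counts or more. Beyond this rule, *Shc1* and *Junb* are named as not past the cut-off, and *Adam17* and *Crkl* for a change of sign. *Adam12* is named after its values were seen. The promoter search covered 6 of the 10 genes followed. *Nrg1*, *Ereg* and *Erbb3* had no window in the source used. *Hbegf* was left out of the search, so its promoter was not tested.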

Additional observations from a re-analysis of the deposited data

Results flagged for a closer look

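In 52 groups of 4 libraries, 2 for each of the 7 members with a row, *Hdac3*, *Nrg2*, *Gm26578* and the 16 genes named by rule from the lists, a single library stood apart from the others by Dixon's criterion for 4 samples in 3, and chance gives about 1 in 20 groups, or 2.6. No member of the ErbB set was among them. *Stat3* had 3248 normalized counts in *Hdac3* KO replicate 4, where the other libraries of the group had 3512 to 3554. *Cblb* had 825 in EV replicate 2, against 731 to 744 in the others. *Sh3kbp1* had 155.7 in EV replicate 3, against 107 to 109 in the others, which is the value that makes its groups overlap.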

How the results depend on the processing

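The directions of the 7 members held under all alternatives run, and *Nrg1*, *Erbb2*, *Ereg*, *Areg* and *Errfi1* kept their calls in each that gave a value, except that *Erbb2* and *Errfi1* are not called where an absolute log2 fold change of 1 is also required. The filter of at least 10 reads in 4 libraries left *Areg* without a value. *Hbegf* missed the cut-off with library totals (log2 fold change 0.20, adjusted p = 0.025) and in limma with pseudocounts of 0.1 (0.19, adjusted p = 0.052) and 1 (0.17, adjusted p = 0.057). Leaving out each library in turn, *Erbb3* ranged from 0.13 to 0.20 (adjusted p 0.0082 to 0.093 in edgeR) and *Hbegf* from 0.27 to 0.39. Requiring also an absolute log2 fold change of 1 left 2 members higher and 1 lower, and 367 and 692 of all genes. With library totals, 2 genes of the shedding list and 2 of the attenuation list were higher past the cut-off. Of all genes, 2671 were higher with the totals and 3895 with TMM factors. The cause of these changes was not tested, except that the totals lower every log2 fold change by about the shift of the median given above. With GENCODE exonic bases as gene length, chosen after seeing the data, the FPKM ratio of *Nrg1* to *Erbb2* was 0.55 in EV and 0.30 in *Hdac3* KO, that of *Nrg1* to *Hbegf* 2.46 and 0.75, and the *Nrg1* share of the ligand FPKM 66.6% and 33.7%.

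The replicate numbers do not pair the samples. Deviations of same-numbered libraries correlated between -0.107 and 0.118, and 2 of 8 libraries correlated best with their own number. With the replicate number as a block, the members past the cut-off stayed at 4 higher and 2 lower, with *Nrg1* at -1.40, *Areg* at 1.87, *Hbegf* at 0.32 (adjusted p = 0.00021) and *Erbb3* at 0.16, and all genes at 3866 higher and 4106 lower. Replicates of a group differed by more than sampling noise. Depth limits *Areg*, with at most 16 reads in a library, and fold changes of *Areg* and *Ereg* on the log2(FPKM + 1) scale are understated.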
